A study of Mus musculus with 6 samples.

Results

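The genes described here encode small ubiquitin-like modifiers (SUMO) and the enzymes that attach them to other proteins. They are *Sumo2*, *Sumo3*, *Sae1*, *Uba2*, *Pias1*, *Pias2*, *Pias3* and *Pias4*, 8 of the 21788 genes with a symbol on the array. Members were found by name in the annotation of the probes, which gave 17 probes for the 8 genes, each printed once. The cells compared were 1G11-mock and 1G11-SOD3, both derived from 1G11, a mouse microvascular endothelial line of the strain C57BL/6NCrLBR, and 1G11-SOD3 differs by its overexpression of *Sod3*. Before RNA was taken, both lines spent 6 h in conditioned medium of N202.1A, a mouse mammary cancer line, so that there is no group without conditioned medium. Each line gave 3 single-color Agilent arrays, labeled by the submitters as biological replicates. Whether the SOD3 line is 1 clone is not given in the sources used here. The question that the comparison addresses is which transcripts differ with *Sod3*, which encodes the secreted superoxide dismutase, and sumoylation is among the processes that the study singles out for further work.

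SUMO proteins are joined to lysines of target proteins much as ubiquitin is. A heterodimer of *Sae1* and *Uba2* products, the E1, activates the modifier, and E3 ligases such as those of the PIAS family help its transfer to chosen targets. SENP proteases mature SUMO and take it off again. *Sumo2* and *Sumo3* encode nearly identical mature proteins that form chains and are attached in quantity after stress, whereas the PIAS proteins were first known as inhibitors of STAT signaling and also act on transcription factors such as NF-κB. In endothelial cells, sumoylation is known to touch inflammatory signaling, the response to hypoxia and the receptors for angiogenic factors.

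The probes are 60-base sequences, and those of *Sumo2* and *Sumo3* are shown because the results turn on them. Positions on chromosomes are copied from the annotation of the array, and the files name no build for them. The *Sumo2* probe A_55_P1969523 lies at chr11:115395952-115397425 on the minus strand. It spans 1474 bases of the genome, more than the 60 of the probe, and therefore crosses an intron. Its whole sequence, and the last 30 bases of 5 other probes, are given from 5′ to 3′, with AATAAA in capitals where it occurs.
*Sumo2* A_55_P1969523: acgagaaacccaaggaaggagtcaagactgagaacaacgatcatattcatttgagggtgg
*Sumo2* A_55_P2132865: ttaaactaaatgaccgatgttctgttctgg
*Sumo2* A_55_P2154870: cgattgcagaattttaatgtttttcattta
*Sumo2* A_55_P2156002: cgtcttgctgtttaAATAAActtcttgttt
*Sumo3* A_55_P2002160: catttttgttccctcccatccctaacattt
*Sumo3* A_55_P2002165: ctgtaaAATAAAcaagttactctgacatac
AATAAA, the usual signal for polyadenylation, was searched on the strand of the probe, and 8.16% of all 55681 probes hold it in their last 30 bases. Of the 17 probes described here, 2 do, the *Sumo2* probe A_55_P2156002 and the *Sumo3* probe A_55_P2002165. No *Sumo2* probe shared a run of more than 9 bases with a *Sumo3* probe. The 4 *Sumo2* probes above start at bases 119, 579, 776 and 938 of the transcript, in the order in which they are listed, so that they read it from its early part to its end. The annotation gives A_55_P2154870 only 39 bases of the genome, chr11:115384423-115384461, inside the span of A_55_P2156002 at chr11:115384423-115384482. These 2 probes share no run of more than 7 bases, so that 1 of these 2 placements cannot hold for the whole probe. That of A_55_P2154870 is shorter than the 60 bases of the probe, and that of A_55_P2156002 is not.

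Place on the array entered into the values, and it decides how the probes are grouped below. The spots form 384 rows and 164 columns, and those in rows 129 to 256 and columns 55 to 109 are called the middle. Probes that are printed 10 times allow the same sequence to be read in the middle and elsewhere. For 147 of them, the copies in the middle differed from the others by a median log2 value of -0.60 on replicate 1, -0.77 on replicate 2 and -2.10 on replicate 3 of 1G11-mock. On the 1G11-SOD3 arrays the median differences were 0.08, -0.20 and 0.07. The middle thus read dim on the 1G11-mock arrays, most of all on replicate 3. The dim area does not end at these rows and columns, which can be seen on the map of block medians, and 3 kinds of value are therefore given beside the difference of a detected SUMO or conjugation enzyme probe. The first is the median difference of neighboring bright spots, within 12 rows and 6 columns. The second is the median shift of copies of the probes printed 10 times that lie as near, each against its own copies outside the middle. The third is the difference after a smooth surface over rows and columns had been taken off each array, which lowered the SD of the difference among copies of 1 probe from 0.62 to 0.26.

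**Figure D1:**
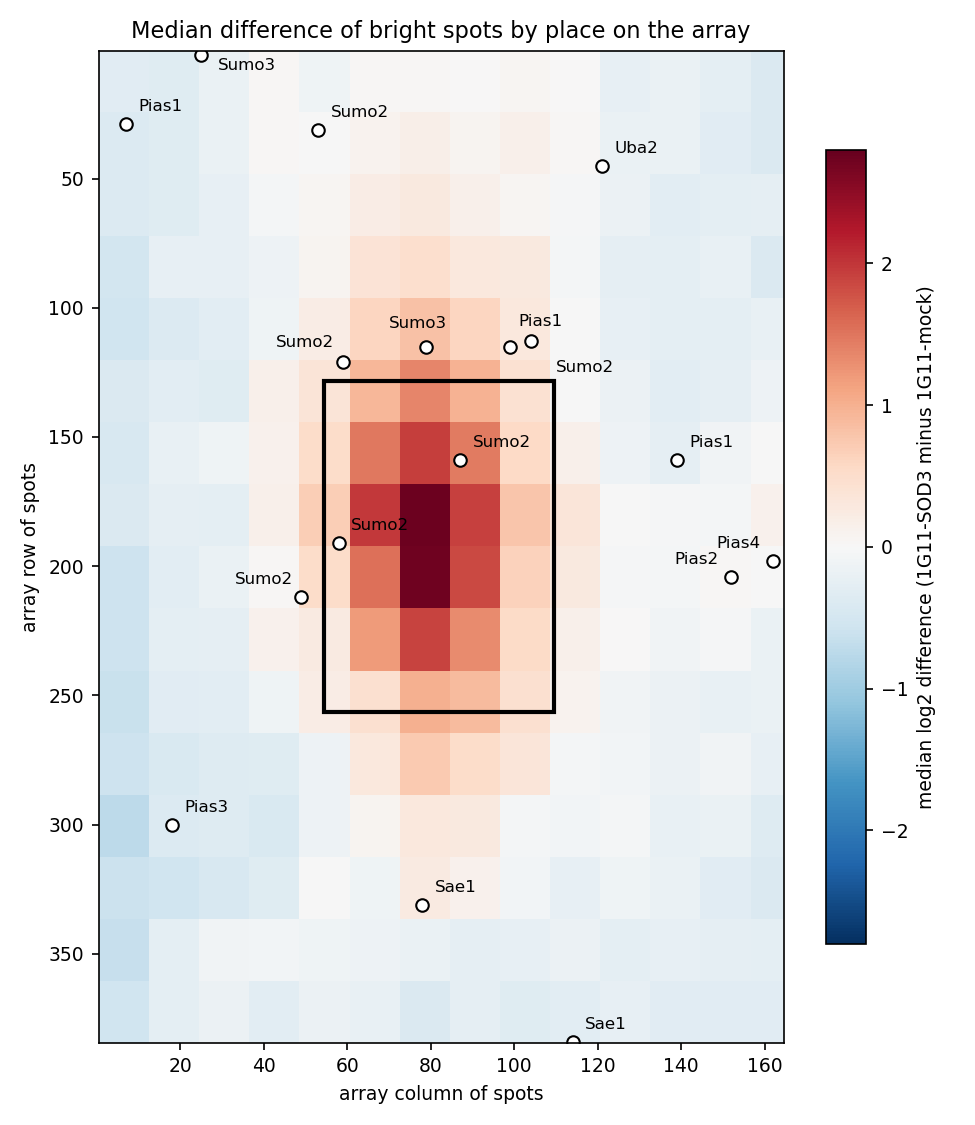
Median log2 difference (1G11-SOD3 minus 1G11-mock) of bright spots in blocks of 24 rows and 12 columns of the array, with the middle outlined and the 17 probes drawn as circles. The block medians run from -0.72 to 2.74, the 2 *Sumo2* probes inside the outline lie on red blocks, and the *Sumo3* probe just above it lies on a block that is also raised.

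Values are log2 intensities after background correction and quantile normalization, and each difference is 1G11-SOD3 minus 1G11-mock. A probe was called different at more than 2-fold and a limma adjusted p under 0.05 over all 55961 features, a feature being a probe in the middle or outside it. Between 34.2% and 43.8% of the 59305 non-control spots of an array stood well above background by the scanner's own test, and none was saturated. The number of arrays limits the precision. On the slide, row 2 held all 1G11-mock and row 1 all 1G11-SOD3 arrays, so that line and slide row cannot be told apart. *Sod3* itself, whose probe lies in the middle, was higher in 1G11-SOD3 cells by 4.27 on the log2 scale (adjusted p = 0.00763, limma) and by 2.69 after position adjustment (adjusted p = 0.0148), and it was not called without 1G11-SOD3 replicate 3 (adjusted p = 0.0508). Of 12 endothelial marker genes, 5 (*Eng*, *Esam*, *Flt1*, *Kdr* and *Mcam*) had a probe well above background on all arrays of a line. Another 5 (*Cdh5*, *Emcn*, *Erg*, *Tek* and *Tie1*) had a probe above it on no array. *Pecam1* was well above background on 2 arrays of each line, and *Cldn5* on 1 1G11-mock array only. For *Kdr* and *Mcam*, a further probe was well above background on no array. *Cdh5* encodes VE-cadherin, a defining protein of endothelium, and was read only by the probe A_52_P248604. The arrays do not measure the protein. The authors state that they regularly checked the endothelial origin of the cells by staining for VE-cadherin. All 6 fibroblast and mural markers were detected and 5 of them had a probe called higher in 1G11-SOD3 cells, 4 outside the middle and 4 after position adjustment, since *Pdgfra* was called only from its copies in the middle. The summed level of these 6 genes was 14.41 to 15.13 on the 1G11-mock and 15.35 to 17.42 on the 1G11-SOD3 arrays (log2). The value of 17.42 came mostly from *Dcn*, which was not called and read 13.51, 13.59 and 17.05 on the 1G11-SOD3 arrays. The sum of the 12 endothelial genes was 14.83 to 15.31 on the 1G11-mock and 14.50 to 14.72 on the 1G11-SOD3 arrays. None of these 12 genes was called in either direction. These sums were not position adjusted, and the detected *Esam*, *Flt1* and *Mcam* probes lie in the middle. Of 6 epithelial and 5 leukocyte markers, 2 each were detected (*Cdh1* and *Krt19*, *Cd3e* and *Itgam*) and none was called. Other *Itgam* probes were well above background on no array. The part of these cell types in the differences below was not tested.

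Of the 15 probes that lie outside the middle, 1 was called higher in 1G11-SOD3 cells, a *Sumo3* probe, against 0.66% of the 49526 features there, and none was called lower, against 1.2% of them. At an unadjusted p under 0.05 in limma, the only tool run, 3 of the 15 differed, all of them higher, against 4.68% of the features outside the middle that were higher by that measure. These 3 probes, of *Sumo3*, *Sumo2* and *Pias1*, lie 8 to 14 rows above the middle and within its columns. Their neighbors had median differences of 0.95, 0.56 and 0.47, so that the share over the whole outside area is not a like comparison. Neither of the 2 probes in the middle, both for *Sumo2*, was called, although both were higher at an unadjusted p under 0.05, as were 27.4% of the 6435 features there, and 11.9% of those features were called higher. In such samples a change in how many cells express a gene and in its RNA per cell cannot be told apart. Every 1G11-SOD3 array lay above every 1G11-mock array for 3 of the 15 probes, against 8.25% of the features outside the middle, and below every one for 2 of them, against 11.4%, 1 of these 2 being the *Sumo2* clone probe that was not well above background. In the middle this was so for both *Sumo2* probes, in the upward direction, against 27.7% of the features there. The median log2 difference of the 15 probes was 0.00 and that of all features outside the middle -0.06. Over the 13 detected probes it was 0.25, against -0.13 for the 17670 detected features there. After position adjustment these medians over detected probes and features lay closer together, at 0.18 and 0.05. *Pias3* and the probe of a *Sumo2* cDNA clone did not rise well above background on any of the 6 arrays, so that they have no fold change here.

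**Figure D2:**
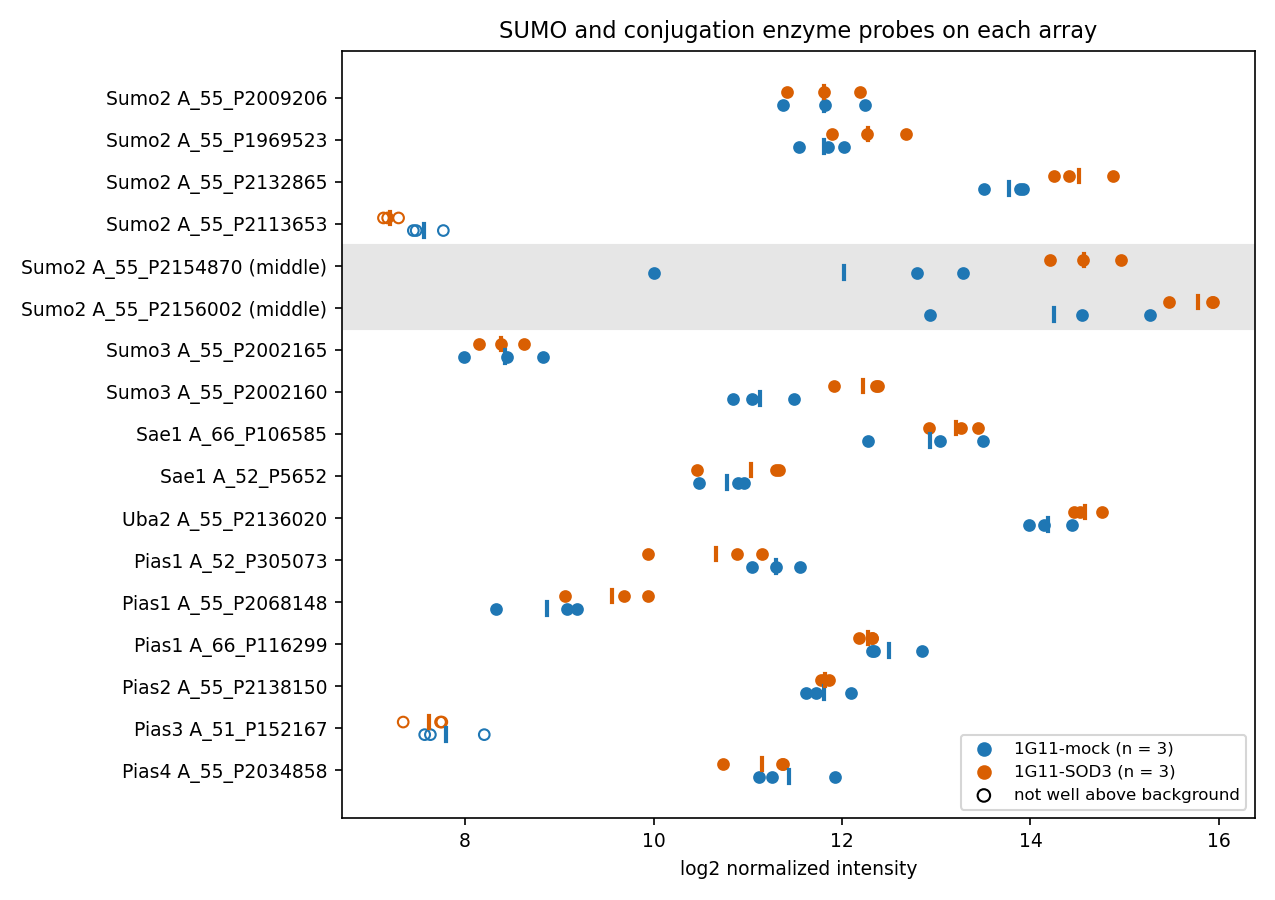
Log2 normalized intensity of each of the 17 probes on each array, with blue points for the 3 1G11-mock and orange points for the 3 1G11-SOD3 arrays, a short bar at each group mean and gray bands for the 2 probes in the middle. The widest spread is that of 1G11-mock on the *Sumo2* probe A_55_P2154870, from 10.01 to 13.28, and 2 probes, drawn with open circles, are not well above background on any array.

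*Sumo2* was the most densely covered gene, with 6 probes, and the 5 that were detected gave differences from -0.01 to 2.55. The earliest of them, A_55_P1969523 at row 113 and column 104, read 11.55, 12.03 and 11.85 on the 1G11-mock arrays and 11.89, 12.27 and 12.68 on the 1G11-SOD3 arrays. The groups overlapped, and the log2 difference was 0.47 (standard error 0.26, 95% interval -0.10 to 1.05, adjusted p = 0.454, limma). Its neighbors had a median difference of 0.32 and the nearby repeated copies a shift of 0.22, and after position adjustment it was at 0.19. The next, A_55_P2009206 at row 31 and column 53, is the *Sumo2* probe farthest from the middle by rows. It read 11.37, 11.82 and 12.25 on the 1G11-mock and 11.81, 11.42 and 12.19 on the 1G11-SOD3 arrays, which is full overlap. Its log2 difference was -0.01 (95% interval -0.64 to 0.63, adjusted p = 0.995), so that a 2-fold change in either direction lay outside the interval. Here the neighbors were at -0.06, the repeated copies at 0.11 and the position-adjusted difference at -0.04.

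The third *Sumo2* probe, A_55_P2132865 at chr11:115384784-115384843, lies at row 121 and column 59, 8 rows above the middle. It read 13.93, 13.89 and 13.51 on the 1G11-mock and 14.41, 14.25 and 14.87 on the 1G11-SOD3 arrays, so that the groups did not overlap. This is a log2 difference of 0.74 (95% interval 0.19 to 1.28, adjusted p = 0.172), which is under 2-fold and was not called. Its 125 neighboring bright spots had a median difference of 0.56, and 10 copies of the probes printed 10 times lay as near and were shifted by a median of 0.68. After position adjustment the probe's difference was 0.24 (95% interval -0.34 to 0.82).

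The 2 *Sumo2* probes in the middle gave the largest differences of the 15 detected probes. A_55_P2154870, at row 159 and column 87, read 13.28, 12.79 and 10.01 on the 1G11-mock and 14.55, 14.20 and 14.96 on the 1G11-SOD3 arrays. Replicate 3 of 1G11-mock was lower than its nearest fellow by more than 2 on the log2 scale, and the groups did not overlap. On the log2 scale the lines differed by 2.55 (standard error 0.66, 95% interval 1.11 to 3.99, adjusted p = 0.0653, limma). A_55_P2156002, at row 191 and column 58, read 15.27, 14.55 and 12.94 on the 1G11-mock and 15.94, 15.47 and 15.92 on the 1G11-SOD3 arrays. Again replicate 3 of 1G11-mock was the lowest and the groups did not overlap. The lines thus differed by a log2 value of 1.53 (standard error 0.47, 95% interval 0.50 to 2.56, adjusted p = 0.128).

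These 2 probes lay among spots that differed in the same direction. The 112 bright neighbors of A_55_P2154870 had a median log2 difference of 1.79, and the 9 copies of repeated probes near it were shifted by 1.96. For A_55_P2156002 the 114 neighbors had a median of 0.87 and the 8 copies a shift of 1.29. Both *Sumo2* probes thus exceeded their neighbors, by 0.76 and 0.66, and exceeded the shift of the repeated copies by less. After position adjustment their differences were 0.82 (95% interval -0.10 to 1.74, adjusted p = 0.287) and 0.54 (95% interval -0.03 to 1.11, adjusted p = 0.255). Without 1G11-mock replicate 1, both were called, at 3.17 (adjusted p = 0.0256) and 2.04 (adjusted p = 0.0283), and without 1G11-mock replicate 3 the difference of A_55_P2154870 fell to 1.54 and was called (adjusted p = 0.0273), while that of A_55_P2156002 fell to 0.87 and was not. Scaling to the 75th percentile in place of quantile normalization called both, at 2.70 and 1.72.

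The probes in the middle and those outside it were compared within each array, since they read the same gene. The mean of the 2 probes in the middle minus the mean of the 3 detected probes outside it was 1.99, 1.09 and -1.06 on the 1G11-mock arrays and 2.54, 2.19 and 2.19 on the 1G11-SOD3 arrays. With the position-adjusted values it was 1.97, 1.61 and 0.05 against 1.87, 1.91 and 1.50. Replicate 3 of 1G11-mock was the lowest array both times. These values are a description with no test, since the middle was set apart because it read dim on the 1G11-mock arrays.

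A probe for a transcript of unknown name shares 31 bases with A_55_P2156002 on the same strand and lies far from the middle, at row 371 and column 148. It was picked for these shared bases. It read 15.14, 14.76 and 15.26 on the 1G11-mock and 13.51, 15.46 and 15.65 on the 1G11-SOD3 arrays, with 1 low 1G11-SOD3 array and overlapping groups. The log2 difference was -0.18 (95% interval -1.20 to 0.84, adjusted p = 0.906, limma). The sixth *Sumo2* probe, A_55_P2113653 of a cDNA clone, lies beyond the others at chr11:115382772-115382831 and was not well above background on any array.

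*Sumo3*, the close relative of *Sumo2*, had 2 probes, of which 1 was called. A_55_P2002160, at chr10:77079173-77079232 on the plus strand, read 11.05, 11.49 and 10.85 on the 1G11-mock and 12.38, 11.92 and 12.36 on the 1G11-SOD3 arrays. The groups did not overlap, with means of 11.13 ± 0.33 and 12.22 ± 0.26 (SD, n = 3 each). This is a log2 difference of 1.09, or 2.13-fold (standard error 0.25, 95% interval 0.54 to 1.64, adjusted p = 0.0408, limma), and this was the only called probe of the 17. The probe lies at row 115 and column 79, 14 rows above the middle and within its columns. Its 98 bright neighbors had a median log2 difference of 0.95 and the 7 repeated copies near it a shift of 1.14, about as much as the probe itself. The position-adjusted difference was 0.18 (95% interval -0.41 to 0.76, adjusted p = 0.747), and the probe was not called without any 1 of the 6 arrays (adjusted p from 0.0513 to 0.159), although its difference then stayed between 0.95 and 1.27.

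The second *Sumo3* probe, A_55_P2002165 at chr10:77081017-77081076, lies nearer the end of the transcript and at the upper edge of the array (row 2, column 25). The scanner software put it well above background on 1 1G11-mock array and on all 3 of 1G11-SOD3. It read 8.83, 7.99 and 8.45 on the 1G11-mock and 8.63, 8.38 and 8.15 on the 1G11-SOD3 arrays, with full overlap. On the log2 scale the lines differed by -0.04 (95% interval -0.62 to 0.55, adjusted p = 0.968), and 0.44 after position adjustment (95% interval -0.16 to 1.05), with neighbors at -0.28 and repeated copies at -0.09. The 2 *Sumo3* probes start at bases 589 and 2433 of the transcript and are not comparable in level.

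Both subunits of the E1 enzyme were detected on all arrays, and neither was called. *Uba2*, which encodes the catalytic subunit that forms the thioester with SUMO, has 1 probe at chr7:34925793-34925852, far from the middle at row 45 and column 121. It read 14.44, 13.98 and 14.14 on the 1G11-mock and 14.76, 14.46 and 14.52 on the 1G11-SOD3 arrays. Every 1G11-SOD3 array was above every 1G11-mock array, by a small margin. The lines thus differed by a log2 value of 0.39 (standard error 0.23, 95% interval -0.11 to 0.90, adjusted p = 0.481, limma). The neighbors of this probe had a median difference of -0.08, the nearby repeated copies a shift of 0.08, and the position-adjusted difference was 0.42 (95% interval -0.07 to 0.90). *Uba2* was thus the probe whose difference moved least when place was taken into account among the 3 outside the middle that were higher on every 1G11-SOD3 array.

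*Sae1*, which encodes the other subunit of the E1, has 2 probes. A_66_P106585, at chr7:16913054-16913113, read 12.28, 13.03 and 13.50 on the 1G11-mock and 13.44, 12.92 and 13.26 on the 1G11-SOD3 arrays, and 1G11-mock replicate 1 was the low array. The log2 difference was 0.27 (95% interval -0.41 to 0.95, adjusted p = 0.755), and it was -0.06 without that array. Its neighbors were at 0.09, the repeated copies at 0.34 and the position-adjusted difference at 0.14. A_52_P5652 spans 1662 bases at chr7:16952241-16953902 and so crosses an intron, and its spot lies in the last row of the array. It read 10.48, 10.96 and 10.90 on the 1G11-mock and 10.46, 11.30 and 11.33 on the 1G11-SOD3 arrays, with 1 low array in each line. This is a log2 difference of 0.25 (95% interval -0.37 to 0.87, adjusted p = 0.749). Its 54 bright neighbors had a median difference of -0.30 and the repeated copies a shift of -0.11, and after position adjustment it was 0.54 (95% interval 0.08 to 1.00, adjusted p = 0.169), with every 1G11-SOD3 array above every 1G11-mock array. The 3 E1 probes all had a positive difference of under 0.4, and for all 3 the interval left out a 2-fold change.

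**Figure D3:**
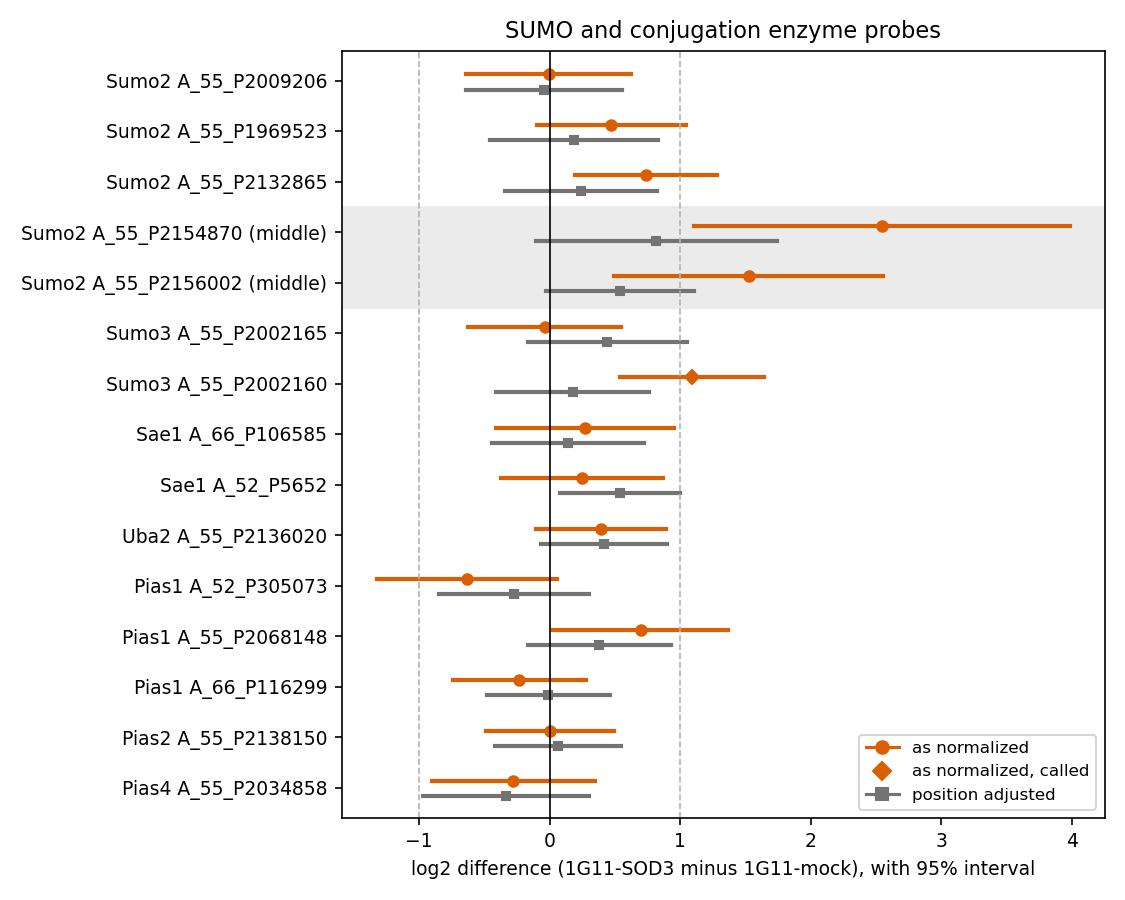
Log2 difference (1G11-SOD3 minus 1G11-mock) of the 15 detected probes with its 95% interval, as normalized (orange) and after position adjustment (gray), with dashed lines at a 2-fold change and gray bands for the probes in the middle. The called *Sumo3* probe (diamond) moves from 1.09 to 0.18 and the *Sumo2* probes in the middle from 2.55 and 1.53 to 0.82 and 0.54, while *Uba2* stays at 0.39 and 0.42.

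The PIAS genes encode E3 ligases, and none of their 6 probes was called. *Pias1* has 3 probes, which did not share a direction. A_52_P305073, at chr9:62728172-62728231, read 11.30, 11.05 and 11.55 on the 1G11-mock and 9.94, 10.89 and 11.15 on the 1G11-SOD3 arrays, where replicate 1 of 1G11-SOD3 was low. On the log2 scale the lines differed by -0.64 (95% interval -1.32 to 0.05, adjusted p = 0.392), with neighbors at -0.34 and repeated copies at -0.04. A_55_P2068148, at chr9:62739992-62740051, lies 14 rows above the middle, at column 99, and stood well above background on 2 1G11-mock arrays. It read 9.08, 9.19 and 8.33 on the 1G11-mock and 9.06, 9.69 and 9.94 on the 1G11-SOD3 arrays, with 1G11-mock replicate 3 the lowest and with overlap. The lines thus differed by a log2 value of 0.70 (95% interval 0.03 to 1.37, adjusted p = 0.322), where neighbors had a median of 0.47 and nearby repeated copies a shift of 0.54.

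The third *Pias1* probe, A_66_P116299 at chr9:62729671-62729730, read 12.32, 12.34 and 12.84 on the 1G11-mock and 12.32, 12.31 and 12.18 on the 1G11-SOD3 arrays. The 1G11-SOD3 arrays all lay below the 1G11-mock arrays, the nearest pair being equal at the precision printed. The log2 difference was -0.23 (95% interval -0.74 to 0.28, adjusted p = 0.713), close to that of its neighbors at -0.24, and the repeated copies were at -0.0041. After position adjustment the 3 *Pias1* probes were at -0.27, 0.38 and -0.01, so that the spread between probes of the gene narrowed.

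*Pias2*, on chromosome 18, read 11.73, 11.61 and 12.10 on the 1G11-mock and 11.86, 11.81 and 11.77 on the 1G11-SOD3 arrays. This is a log2 difference of 0.00 (95% interval -0.49 to 0.50, adjusted p = 0.997, limma), with neighbors at 0.06, repeated copies at 0.07 and a position-adjusted value of 0.06. *Pias4*, with its probe at chr10:80617226-80617285, read 11.12, 11.92 and 11.25 on the 1G11-mock and 11.36, 11.37 and 10.73 on the 1G11-SOD3 arrays. These groups overlapped, and the log2 difference was -0.28 (95% interval -0.90 to 0.34, adjusted p = 0.718). Its neighbors were at 0.10 and the repeated copies at 0.09, and the position-adjusted difference was -0.33. *Pias3*, at chr3:96506433-96507500, was not well above background on any of the 6 arrays, so that no difference can be given for it.

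Over the 15 probes that were well above background on all arrays of a line, the difference of a probe followed the difference of its surroundings. Across these probes, which share arrays and often a gene and are not independent, it correlated with the median difference of neighboring bright spots (Pearson r = 0.94, Spearman rho = 0.83). Among the 13 of them outside the middle the values were 0.84 and 0.74. The median size of the difference was 0.39, and 0.23 once the neighbors' median had been taken off, or 0.28 and 0.18 outside the middle. For the 24 detected probes of other sumoylation genes, described below, r was 0.87 and the median size 0.18 before and 0.17 after, and for the 22 of them outside the middle r was 0.66 and the size went from 0.15 to 0.17. Outside the middle the median size was thus smaller after this step for the SUMO and conjugation enzyme probes and not for the others. In the 15 probes what remained ran from -0.38 for *Pias4* to 0.76 for the *Sumo2* probe A_55_P2154870.

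**Figure D4:**
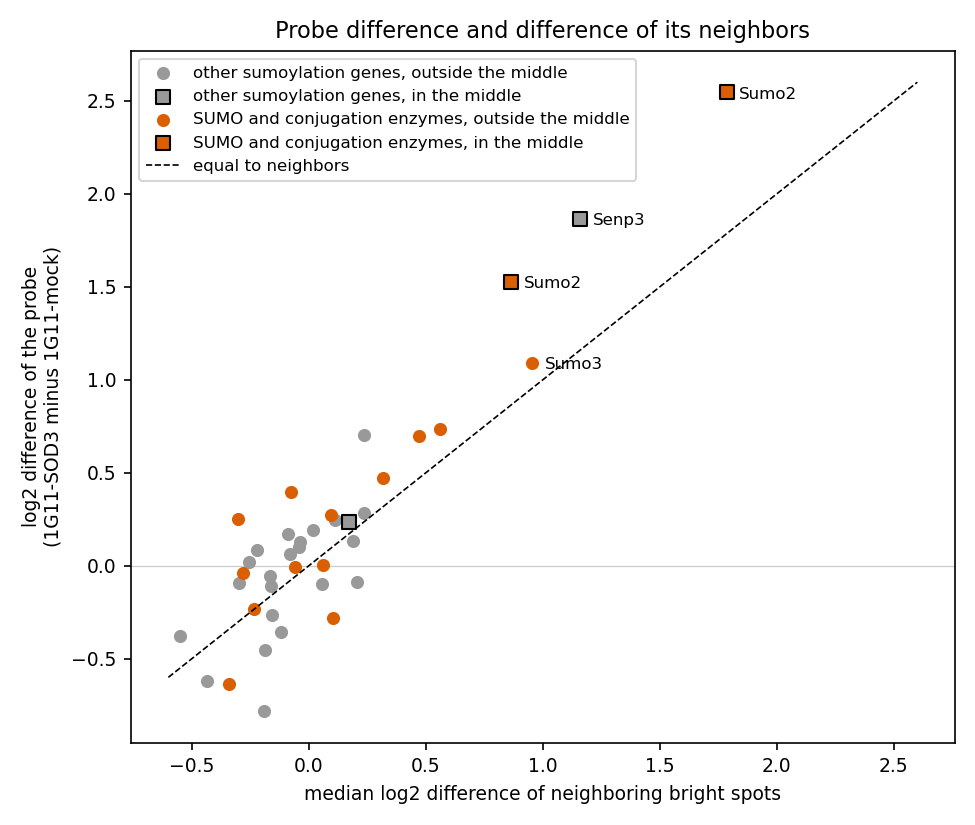
Log2 difference of each detected probe (vertical axis, 1G11-SOD3 minus 1G11-mock) against the median log2 difference of the bright spots within 12 rows and 6 columns of it (horizontal axis), for the 15 probes of SUMO and conjugation enzymes (orange) and 24 probes of other sumoylation genes (gray), with squares for probes in the middle. Most points lie near the dashed line of equality, and the *Sumo2* and *Senp3* probes in the middle lie above it.

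Further parts of the sumoylation pathway were read from 19 other genes with 27 probes, of which 25 lie outside the middle. None of these 25 was called in either direction, with 2 at an unadjusted p under 0.05 in the limma fit, against 12.7% of the features outside the middle, and their median log2 difference was -0.05, against -0.06 for all features outside the middle. By role, they comprised 8 genes of other E3 ligases or E3-like proteins (10 probes), 9 SUMO proteases (15 probes) and 2 ubiquitin ligases that act on sumoylated proteins (2 probes). Among the 2 probes in the middle, for *Senp2* and *Senp3*, 1 was called higher.

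*Senp3*, a protease of the nucleolus that takes SUMO off its targets, had, like *Sumo2*, a probe in the middle with a larger difference than the one outside it, and the gap between the 2 probes was not tested. Its probe in the middle, A_55_P1986386 at row 200 and column 96, read 9.49, 10.03 and 8.34 on the 1G11-mock and 11.12, 11.09 and 11.25 on the 1G11-SOD3 arrays. It stood well above background on 2 of the 1G11-mock arrays, and it differed by 1.87 on the log2 scale (standard error 0.36, adjusted p = 0.0185, limma). Its neighbors had a median difference of 1.16, and with the position surface taken off the probe was at 0.54 (adjusted p = 0.311). It was not called without 1G11-SOD3 replicate 1 or 3. The second *Senp3* probe, outside the middle, had a log2 difference of -0.05 (95% interval -0.80 to 0.69, adjusted p = 0.965).

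Outside the middle, the 5 other genes with the largest differences were *Ranbp2*, *Mul1*, *Zmiz1*, *Rnf111* and *Trim28*, and none of them passed the threshold. *Ranbp2*, which encodes a nucleoporin with E3 activity, read 11.62, 11.80 and 12.41 on the 1G11-mock and 10.89, 10.72 and 11.88 on the 1G11-SOD3 arrays, a log2 difference of -0.78 (adjusted p = 0.302), and -0.59 after position adjustment. *Mul1*, a ligase of the mitochondrial outer membrane, had a difference of 0.71 (adjusted p = 0.265), and 0.50 after position adjustment. *Zmiz1*, a PIAS-like protein, had probes at -0.62 and 0.24 (adjusted p = 0.362 and 0.687). These 3 genes thus had no common direction, and the groups overlapped for each of their probes.

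*Rnf111*, which encodes a ubiquitin ligase that recognizes SUMO chains, read 13.05, 12.74 and 12.76 on the 1G11-mock and 12.44, 12.39 and 12.37 on the 1G11-SOD3 arrays. The 2 groups did not overlap, and 1G11-SOD3 was the lower. On the log2 scale the lines differed by -0.45 (95% interval -0.93 to 0.02, adjusted p = 0.372, limma), and by -0.27 after position adjustment (adjusted p = 0.528). *Trim28*, a corepressor with E3 activity for SUMO, had a difference of -0.38 with overlapping groups (adjusted p = 0.614), and its neighbors had a median difference of -0.55.

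**Figure D5:**
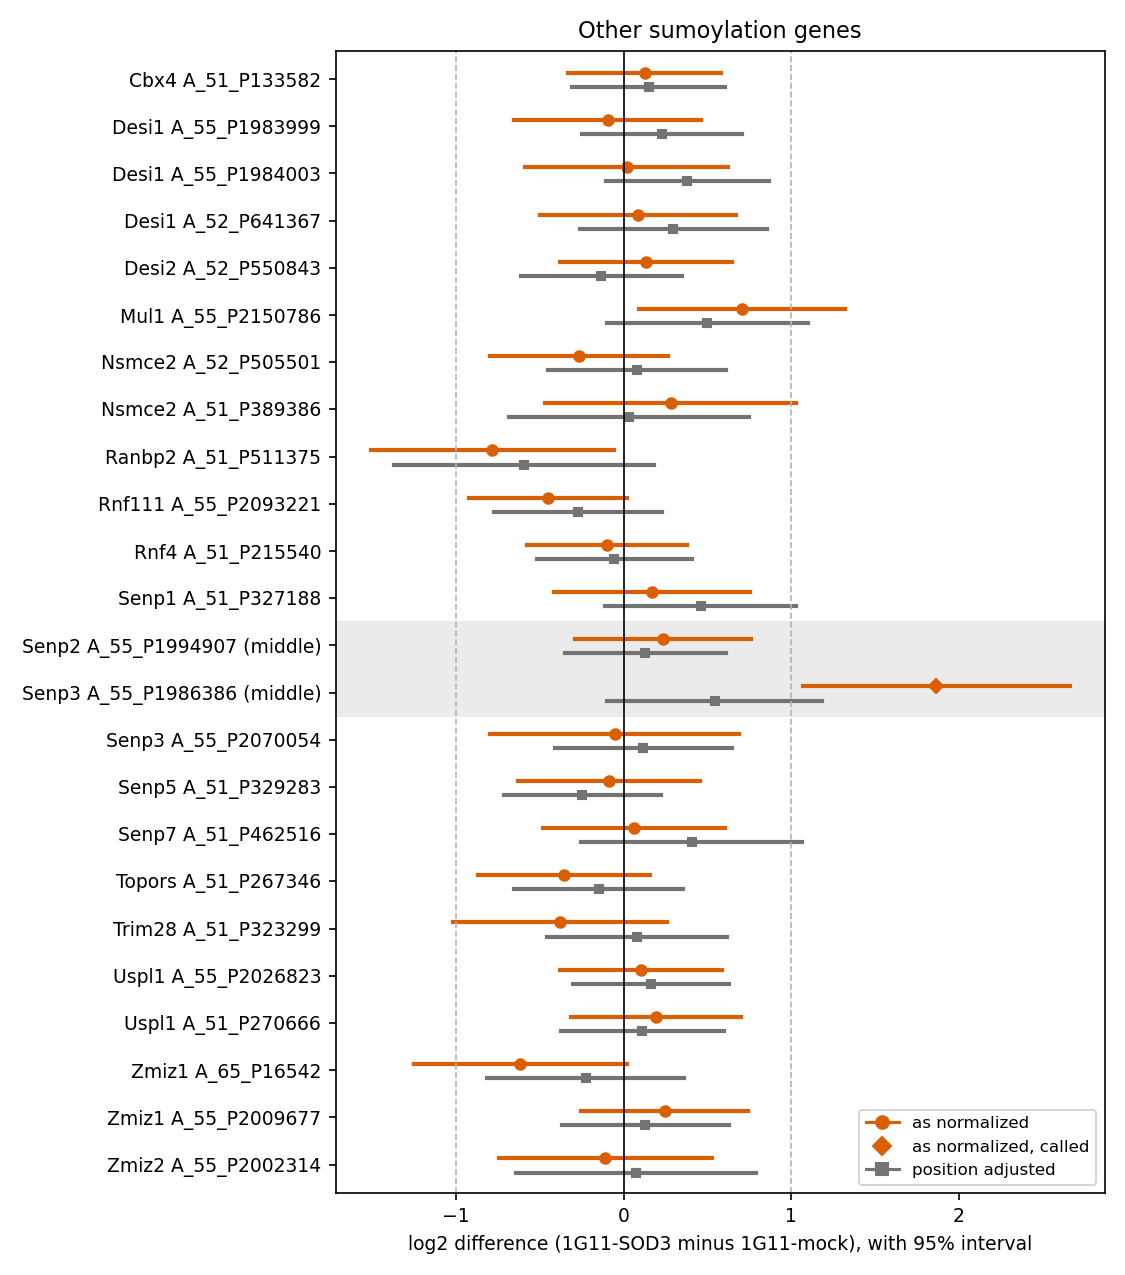
Log2 difference (1G11-SOD3 minus 1G11-mock) of the 24 detected probes of other sumoylation genes with its 95% interval, as normalized (orange) and after position adjustment (gray), with dashed lines at a 2-fold change. The *Senp3* probe in the middle (gray band, diamond) is the called one, at 1.87 and after adjustment 0.54, and the 22 probes outside the middle lie between -0.78 and 0.71.

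After position adjustment none of the 17 probes was called, the smallest adjusted p being 0.169 for the *Sae1* probe A_52_P5652 in the limma fit, and the 15 detected probes ran from -0.33 to 0.82. Of all 55961 features, 1.19% were then called higher and 3.14% lower. None of the 27 other probes was called either (smallest adjusted p = 0.311). The interval lay within a 2-fold change in both directions for 8 of the 15 probes as normalized and for 12 of them after the adjustment.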

How the data were processed

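The authors deposited 1 scanner file per array (Agilent Feature Extraction, version 10.7.3.1), which holds the mean and median intensity of each spot, its local background and a processed signal, without normalization across arrays. A further table deposited by the authors holds log2 values after normexp correction (offset of 50) and quantile normalization, and the submitters' processing notes name limma. Here the scanner files were the source of all values except in 1 alternative, which used the table. Mean intensities were corrected with normexp (offset of 50, background median), control spots were removed, and log2 values were quantile normalized. Spots marked as non-uniform or population outliers were left out, and copies of a probe were averaged within the middle and outside it. The lines were compared in limma 3.58.1 (R 4.3.3) with moderated variances, and p was adjusted by Benjamini-Hochberg over 55961 features. Standard errors and 95% intervals are those of this fit. The normexp offset, the quantile normalization and the use of limma thus follow the study's methods, with no covariate. Mean intensity, the removal of control and outlier spots and the averaging by place were choices made here.

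The position surface was a smooth of rows and columns (mgcv, basis of 200), fitted per array to the deviations of bright spots, those well above background on at least 3 arrays, from the mean of the 6 arrays. Probes printed 10 times were held out of it. Alternatives are given in the closing section. The member genes, the list of other sumoylation genes, the markers and the settings were chosen with earlier results of these data known. The text names every member and every one of its probes, the other sumoylation genes with a called probe and the 5 with the largest difference outside the middle among probes well above background on all arrays. Some genes of that list and 1 probe sequence are not reported here. Gene symbols came from the probe annotation and, for 27640 of 28066 probes with a RefSeq accession, from a match to RefSeq. The replicates are biological replicates per the labels, and a shared number does not mark a known pair. Figures were made in Python 3.11.15 with matplotlib 3.10.9.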

Additional observations from a re-analysis of the deposited data

How the results depend on the processing

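The count of called probes outside the middle, 1 as reported, was 0 with an offset of 16, with an intensity trend, after position adjustment and without any 1 of the 6 arrays (0 to 0), the *Sumo3* probe A_55_P2002160 being the one lost. Its difference, 1.09 as reported, was 1.10 with an offset of 16, 1.09 with the trend and 0.95 to 1.27 with 1 array left out, against 0.18 after position adjustment. With the processed signal, the median log2 difference of all features was -0.52. The 1 called probe was then another, the dim *Sumo2* clone probe, which was called lower in 1G11-SOD3 cells. Under this setting the *Sumo3* probe was at 0.40 (adjusted p = 0.377). With all arrays its adjusted p lay between 0.0148 and 0.747. In the middle, 0 probes were called as reported, 2 with scaling to the 75th percentile (median log2 difference of all features -0.33), 1 with the replicate block, and 0 to 2 with 1 array left out. Over all features 1692 were called, against 1093 with no background correction, 11244 with the processed signal, 2687 with scaling to the 75th percentile, 768 with the middle left out and 806 to 1866 with 1 array left out. The balance of directions turned from 1095 higher and 597 lower to 668 and 1755 after position adjustment and to 1235 and 10009 with the processed signal, and with the middle left out it was 412 and 356. Of the other sumoylation genes 1 probe was called, 2 with the processed signal, 0 with the middle left out or after position adjustment, and 0 to 1 with 1 array left out, 0 without 1G11-SOD3 replicate 1 or 3. The probe added with the processed signal was called lower and was not well above background on any array. *Sod3* ran from 3.17 to 5.05 with 1 array left out and was no longer called when replicate 3 of 1G11-SOD3 was left out (4.29, adjusted p = 0.0508).

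4 probes changed sign, all but the *Sae1* probe having differences near 0. *Pias2* was at -0.012 with median pixel intensity and -0.010 with the deposited table, and from -0.10 to 0.15 with 1 array left out. The *Sumo2* probe A_55_P2009206 was at 0.027 with median pixel intensity and 0.030 with the deposited table, at 0.11 with the processed signal, 0.16 with scaling to the 75th percentile, 0.10 with cyclic loess, 0.15 with the middle left out, and from -0.23 to 0.21 with 1 array left out. The *Sumo3* probe A_55_P2002165 was at 0.033 with no background correction, 0.10 with the processed signal, 0.064 with the middle left out, 0.44 after position adjustment, and from -0.25 to 0.17 with 1 array left out. The *Sae1* probe A_66_P106585, at 0.27 as reported, ran from -0.060 to 0.55 with 1 array left out and was negative only without 1G11-mock replicate 1. Of 313 values of the 15 detected probes under the alternatives, 277 kept their direction and their side of the threshold. The causes of these changes were not tested.

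Samples of the 2 lines share replicate numbers in their titles. The deviations of same-numbered arrays correlated at 0.17, 0.22 and 0.09, each array correlating best with its own number. Same-numbered arrays also lay in the same slide column, so that replicate number and slide column cannot be told apart. A pairing of the replicates is not in the design, and a block by number is also a block by slide column. With the replicate block 2296 features were called, 1498 higher and 798 lower, among them *Sumo3* (1.09, adjusted p = 0.0429) and the *Sumo2* probe A_55_P2154870 (2.55, adjusted p = 0.0308). Signal over background limited what could be read for *Pias3* and the *Sumo2* clone probe.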
